A study of Mus musculus with 6 samples.

Results

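Genes for the subunits of heterotrimeric G proteins and for RGS proteins were followed in mouse pre-pro-B cells lacking Ebf1, with and without the gene restored by retrovirus. Members were taken by name: every array probe whose gene name begins with Gna, Gnb, Gng or Rgs, leaving out names that begin with Gnb2l or Gnb1l. These families were chosen with earlier results of these data known. The rule took 101 of 41174 probes, which stand for 55 of 28303 genes or unnamed sequences. Of these, 32 are G protein subunit genes and 22 are Rgs-named genes, among them the RGS binding proteins Rgs7bp and Rgs9bp. The remaining gene, Gnl1, was caught because the array names it Gnal1, and it encodes a GTP-binding protein that is not a heterotrimer subunit.

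A heterotrimeric G protein couples a cell-surface receptor to enzymes inside the cell. The activated receptor makes the alpha subunit exchange GDP for GTP, and alpha and the beta-gamma pair then act on separate effectors such as adenylyl cyclases, phospholipases and kinases. RGS proteins speed the hydrolysis of GTP by alpha subunits and so end the signal. In lymphoid cells these proteins carry the signals of chemokine, sphingosine phosphate and other receptors that direct where a cell moves.

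All 6 samples were Ebf1 -/- pre-pro-B cells (fraction A), cultured over a layer of OP9 stromal cells in medium with Flt3 ligand, interleukin 7 and stem cell factor, 10 ng/ml of each. Control cells (n = 3) received pMYs-IRES-EGFP, a retrovirus encoding EGFP alone, and Ebf1 cells (n = 3) received pMYs-Ebf1beta-IRES-EGFP, so Ebf1 came from a viral transgene and not from its own locus. Virus was made in the packaging line Plat-E, and EGFP-positive cells were sorted 24 h after infection. The ages of the mice are not given, and nothing in the labels says whether the replicates were separate cultures, so p-values measure only the spread between these samples. Total RNA was labelled with Cy3 and hybridised to 1-colour arrays, and the comparison asks which of these genes differed 24 h after Ebf1 was restored. Values are log2 signals relative to the 75th percentile of their own array, so 0 is that percentile, and a change is the Ebf1 mean minus the control mean on that scale.

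The 75th percentile signal ranged from 240 to 366 on the control arrays and from 316 to 364 on the Ebf1 arrays, and no spot was saturated. The share of probes well above background ran from 46.4% to 50.2% in the control group and from 50.4% to 59.8% in the Ebf1 group, with Ebf1 replicate 3 at the top. Slide 1 carried control replicate 2 and Ebf1 replicate 1, slide 2 the other two control arrays and slide 3 the other two Ebf1 arrays, so slide 1 alone held both groups. Of 17 fixed markers of early B lineage cells, 15 were tested, and Ptprc, Flt3, Il7r and Kit were well above background in the controls. Of 20 fixed stromal markers of the feeder layer, 14 were tested and 3 (21.4%) were called (limma adjusted p under 0.05), all higher. Among all tested genes 23.6% were called, 12.6% of them all being called higher. The 14 changes ran from 0.40 to 1.07 with a median of 0.58, against -0.06 over all tested genes. By limma 8 of the 14 had an unadjusted p under 0.05, against 5276 of all 13839. The summed level of the stromal markers ran from 17.4 to 25.4 times the array's 75th percentile on control arrays and from 27.6 to 36.8 times on Ebf1 arrays. Its part in the results on the G protein genes was not tested. In RNA from a population, fewer cells of a type and less RNA per cell cannot be told apart.

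The array reads each gene through probes of 60 bases, and 4 of the sequences behind the results on subunits are shown with their mm9 positions. They mark what was measured for Gng13, which had the largest fitted change of the members, for the neighbouring genes Gna15 and Gna11, and for Gnb5. The Gnb5 probe spans 936 bases of genome and therefore crosses an exon junction. No gene model of mm9 was used here, so whether a probe lies in coding sequence or in a UTR is not stated.
Gng13 (chr17:25855911-25855970, plus strand): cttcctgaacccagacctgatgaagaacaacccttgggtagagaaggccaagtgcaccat
Gna15 (chr10:80970686-80970745, minus strand): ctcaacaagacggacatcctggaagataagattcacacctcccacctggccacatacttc
Gna11 (chr10:80994095-80994154, minus strand): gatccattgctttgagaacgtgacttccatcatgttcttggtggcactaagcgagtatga
Gnb5 (chr9:75191364-75192299, plus strand): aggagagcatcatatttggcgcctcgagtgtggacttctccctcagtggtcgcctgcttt

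To be tested, a probe had to stand well above background on every array of at least 1 group of 3, and a gene was read through its brightest tested probe. By this filter 31 of the 55 genes (52 of the 101 probes) were tested, and 24 were not. With limma and an adjusted p under 0.05, 12 of the 31 were called higher and 9 lower in Ebf1 cells, and 10 did not pass. Across all 13839 tested genes, 23.6% were called, 12.6% higher and 11% lower. The median change was 0.22 over the 31 tested genes and -0.06 over all tested genes. Gng13, Rgs9 and Rgs9bp passed the filter through the Ebf1 group alone and so had to differ. Among the 28 genes well above background on all 6 arrays, 9 were called higher and 9 lower, against 9.57% and 11.6% of all 12544 such genes. At the level of probes, 16 of 52 were called higher and 12 lower, against 11.5% and 10.2% of all 20459 tested probes.

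The calls fell unevenly over the subfamilies. Of 19 tested subunit genes, 6 were called higher, 3 lower and 10 not, while of 11 tested Rgs-named genes 6 were called higher and 5 lower. On all 6 arrays above background the counts were 5 higher and 3 lower of 18 subunit genes and 4 higher and 5 lower of 9 Rgs genes. The difference between subunit and Rgs genes in the share called was not tested. In 25 of the 31 genes the 3 Ebf1 arrays did not overlap the 3 control arrays, a pattern seen in 45.4% of all tested genes. The same held for 22 of the 28 genes above background on all 6 arrays, against 44.1% of all such genes, and for 36 of the 52 tested probes, against 42.6% of all tested probes.

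**Figure D1:**
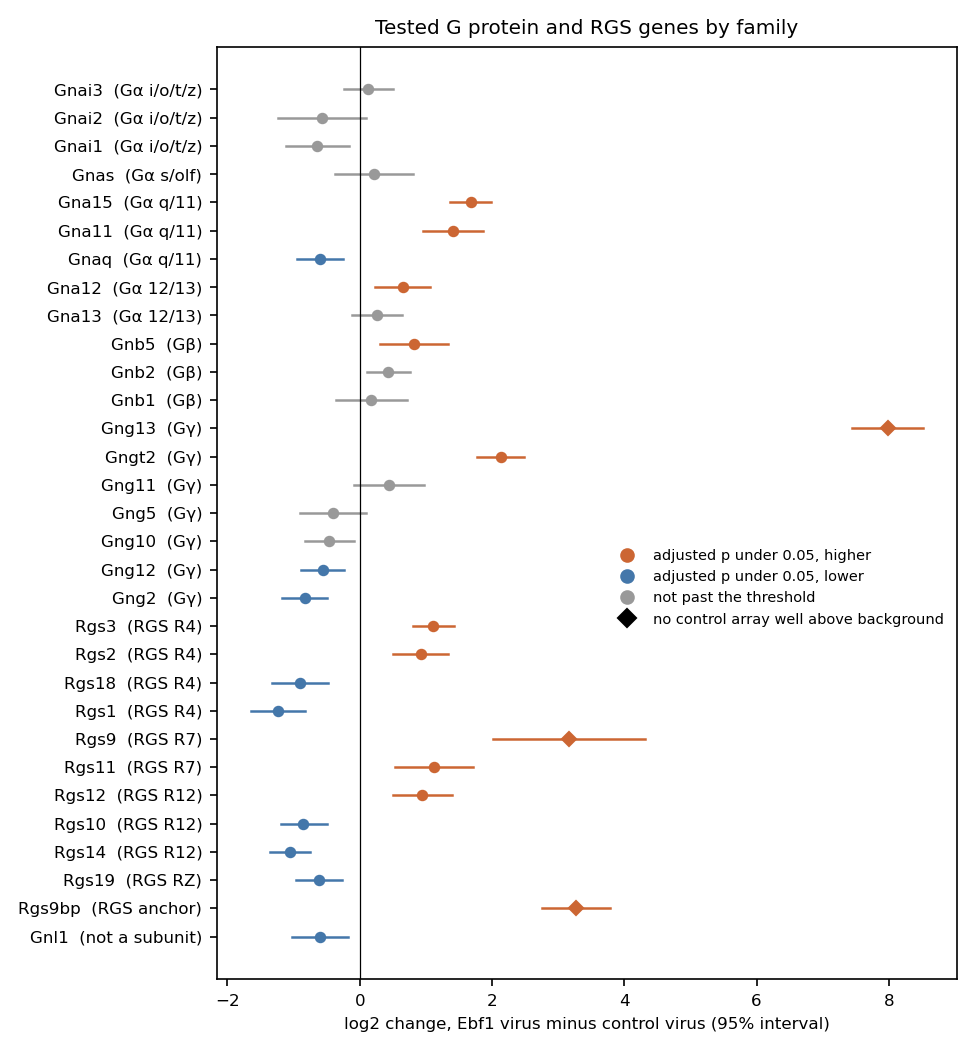
Log2 change (Ebf1 virus minus control virus, with the 95% interval of the limma fit) of the 31 tested genes by subfamily, coloured by call at an adjusted p of 0.05; diamonds mark genes that no control array measured above background. Gng13 stands at 7.98, the q/11 genes Gna15 and Gna11 lie above 0 and Gnaq below, and the intervals of Gnai2, Gnai3, Gnas, Gna13, Gnb1, Gng5 and Gng11 span 0.

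The alpha subunits of the q/11 class, which activate phospholipase C beta, went both ways. Gna15 encodes the haematopoietic member of the class (often called Galpha 15/16). Its control arrays read -0.59, -0.56 and -0.63 and its Ebf1 arrays 1.18, 1.11 and 0.96. The groups did not overlap, and each was tight compared with the gap. The change was 1.68 (SE 0.13), a 3.2-fold rise, with a limma adjusted p of 0.000123. Gna11, a broadly expressed member, read 0.33, 0.3 and 0.44 in controls and 2.15, 1.48 and 1.67 in Ebf1 cells. All Ebf1 arrays were higher, replicate 1 most. It rose by 1.41 (SE 0.20, limma adjusted p 0.002), and a second Gna11 probe, elsewhere in the transcript, gave 1.27.

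Gnaq, the closest relative of Gna11, moved the other way and by less. Its controls read 1.85, 1.96 and 1.92 and its Ebf1 arrays 1.44, 1.09 and 1.41, without overlap. It fell by 0.60 (SE 0.15, limma adjusted p 0.0284) at this probe and by 1.04 (SE 0.19, adjusted p 0.00679) at the other tested probe. The call on the first probe was lost, with adjusted p up to 0.104, when any control array, Ebf1 replicate 2 or Ebf1 replicate 3 was left out. Gna14, the remaining member of the class, was not tested. The probes of Gna15 and Gna11 lie 23.4 kb apart on chromosome 10.

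Of the alpha 12/13 class, which acts on the actin cytoskeleton through guanine nucleotide exchange factors, Gna12 was called higher. Its controls lay at -1.63, -1.37 and -1.72 and its Ebf1 arrays at -0.65, -1.01 and -1.12, without overlap. The rise was 0.65 (SE 0.18, limma adjusted p 0.0389), and it did not pass when any 1 array other than Ebf1 replicate 3 was left out (adjusted p up to 0.129) or with normexp background correction (0.38). Gna13 gave 0.26 (95% interval -0.12 to 0.64, limma adjusted p 0.291), and its 3 tested probes ran from 0.05 to 0.64 without a call.

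The inhibitory alpha subunits, which lower adenylyl cyclase activity and carry most chemokine signals, gave no call. Gnai3 was at 4.57, 4.96 and 4.78 in controls and at 4.94, 4.77 and 5.01 in Ebf1 cells, a difference of 0.13 (95% interval -0.23 to 0.5, limma adjusted p 0.578). The groups overlapped. For Gnai2 the difference was -0.57 (95% interval -1.24 to 0.1, limma adjusted p 0.195), and Ebf1 replicate 1, at 3.56, lay apart from the other two at 4.72 and 4.4. Gnai1 read 2.19, 2.13 and 2.15 in controls and 1.11, 1.86 and 1.59 in Ebf1 cells. Its groups did not overlap, yet its difference of -0.64 (SE 0.20) missed the threshold at a limma adjusted p of 0.062. With normexp correction the adjusted p was 0.012. Gnao1, Gnaz and the transducin alphas Gnat1 and Gnat2 were not tested.

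A second Gnai1 probe overlaps the first by 30 bases, printed in capitals, and both are shown because they read neighbouring stretches of a single transcript with unlike spread.
Gnai1 probe at chr5:17777679-17777738, minus strand: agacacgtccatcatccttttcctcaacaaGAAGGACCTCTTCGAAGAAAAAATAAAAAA
Gnai1 probe at chr5:17777649-17777708, minus strand: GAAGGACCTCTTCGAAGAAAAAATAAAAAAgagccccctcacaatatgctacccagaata
The second of these read -1.84, -1.14 and -4.15 in controls and -4.43, -3.82 and -3.16 in Ebf1 cells. Control replicate 3 lay among the Ebf1 arrays, and the difference of -1.43 had an SE of 0.72 and a limma adjusted p of 0.199.

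Gnas, the stimulatory alpha subunit that activates adenylyl cyclase, was read by 4 tested probes, with changes from -0.68 to 0.32 and no call. Its brightest probe gave 0.22 (95% interval -0.37 to 0.8, limma adjusted p 0.573). Gnal, the olfactory member of this class, was not tested.

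Among the beta subunits Gnb5 was called higher. Gnb5 is the divergent beta subunit that pairs with RGS proteins of the R7 class in place of a gamma subunit. Its controls lay at -1.5, -1.56 and -1.74 and its Ebf1 arrays at -0.3, -0.93 and -1.1, with Ebf1 replicate 1 highest and no overlap. The rise was 0.82 (SE 0.22, limma adjusted p 0.0359). It missed the threshold without any 1 control array or without Ebf1 replicate 2 (adjusted p up to 0.115) and with normexp correction (0.53, adjusted p 0.0553).

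The common beta subunits, which form the pairs released from most G proteins, were not called. Gnb2 read 5.23, 5.03 and 5.13 in controls and 5.66, 5.46 and 5.57 in Ebf1 cells. Without overlap, its difference of 0.43 (SE 0.14, 95% interval 0.11 to 0.76) had a limma adjusted p of 0.0636. Gnb1 gave 0.17 (95% interval -0.36 to 0.71, limma adjusted p 0.621), and its 4 tested probes ran from -0.15 to 0.32. Gnb3 and Gnb4 were not tested.

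The gamma subunits, which hold the beta-gamma pair to the membrane, held the largest fitted change of the tested members. Gng13, a gamma subunit known from taste cells and retina, read -7.12, -6.68 and -6.22 on control arrays, none of them well above background. Its Ebf1 arrays read 1.43, 1.24 and 1.27. Every Ebf1 array was thus above its 75th percentile, while no control array measured the transcript. Gng13 passed the filter through the Ebf1 group alone and so had to differ, and its p-value adds no support. Set against a floor for the control arrays, the signal was 156-fold higher in Ebf1 cells (fitted change 7.98, SE 0.23, limma adjusted p 1.08e-06). The floor raises each control array to its lowest signal well above background. Spots over that floor could still count as not well above background, so 156 is not a strict lower limit. Rgs9 on control replicate 3 did so at -4.68, over a floor of -6.09. The value for Gng13 holds for the processed signal: with normexp correction, which adds an offset, its log2 change was 3.82.

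Gngt2, the gamma subunit of cone transducin, was measured above background on all 6 arrays. Controls read -4.03, -4.09 and -4.08 and Ebf1 arrays -2.01, -1.72 and -2.09, with a wide gap and no overlap. It rose by 2.13 (SE 0.15, limma adjusted p 6.55e-05), and by 0.87 with normexp correction. Gngt1, the rod counterpart, was not above background on any array. The remaining gamma subunits that passed the test fell. Gng2, a widely expressed gamma subunit, read 3.64, 3.55 and 3.7 in controls and 2.82, 2.62 and 2.95 in Ebf1 cells, without overlap. It fell by 0.83 (SE 0.15, limma adjusted p 0.0066), while a second probe at -0.53 missed the threshold (adjusted p 0.0551).

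Gng12 fell by 0.56 (SE 0.14, limma adjusted p 0.0266), a call that held in the fit without Ebf1 replicate 3 and was lost, with adjusted p up to 0.0848, without any 1 other array. Its other tested probe, at -0.46 (adjusted p 0.134), was not called. Gng10 (-0.46, 95% interval -0.82 to -0.09, limma adjusted p 0.0753), Gng5 (-0.41, -0.9 to 0.09, adjusted p 0.207) and Gng11 (0.44, -0.09 to 0.97, adjusted p 0.206) did not pass. Gng3, Gng4, Gng7, Gng8 and Gngt1 were not tested.

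**Figure D2:**
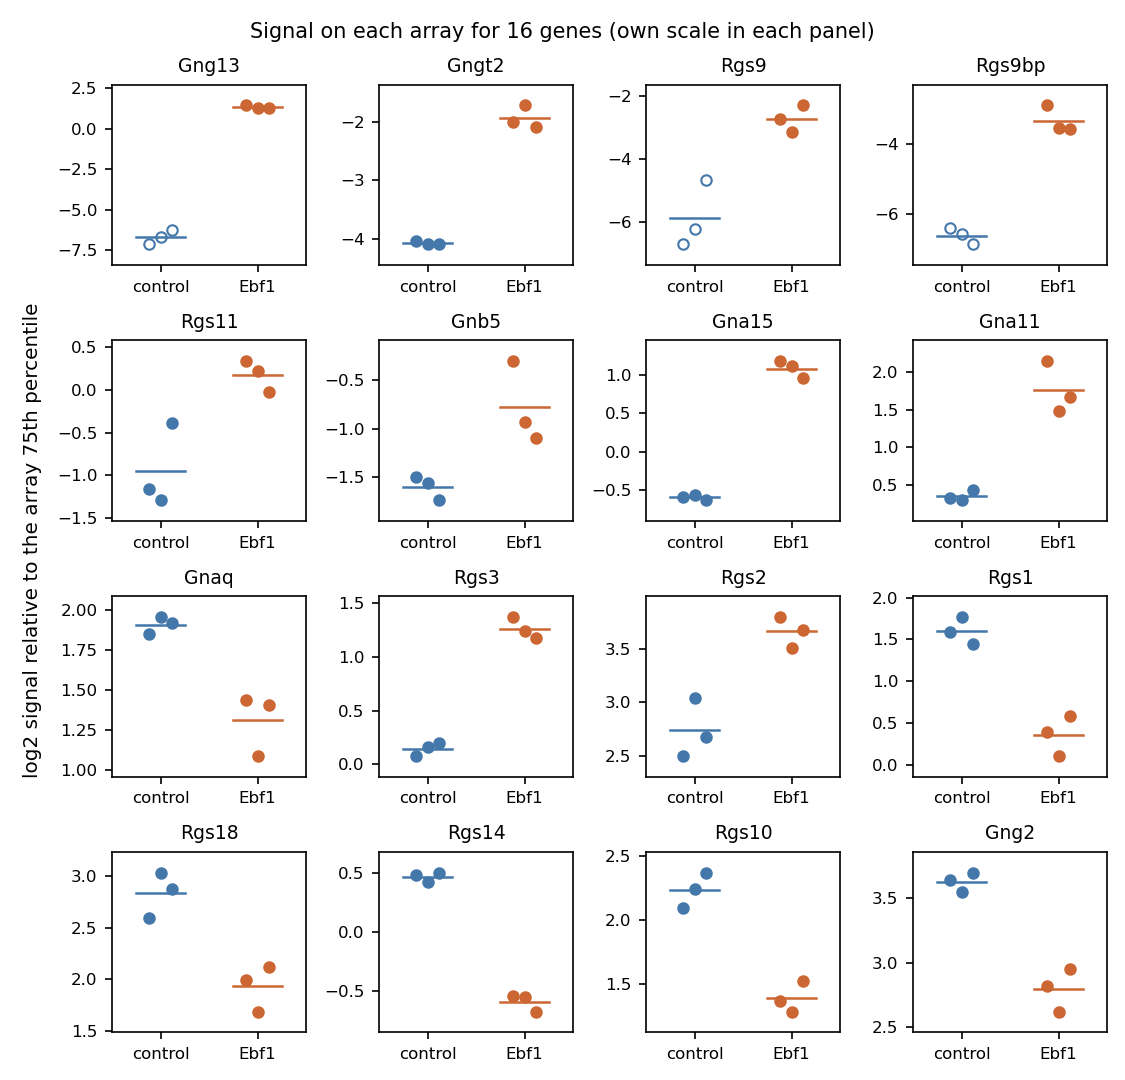
Log2 signal relative to the array's 75th percentile on each of the 3 control and 3 Ebf1 arrays for 16 genes, each panel on its own scale; points are arrays, lines are group means and open points are arrays not well above background. The groups do not overlap in any panel, and the control points of Gng13, Rgs9 and Rgs9bp are open.

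The R7 class of RGS proteins acts on inhibitory alpha subunits in neurons and retina as a complex with Gnb5, and its retinal form is held by the anchor Rgs9bp. Rgs9 read -6.71, -6.22 and -4.68 on control arrays, none well above background, and -2.74, -3.13 and -2.29 on Ebf1 arrays. Control replicate 3 was the highest control and still lay below every Ebf1 array. Set against the floor used for Gng13, Rgs9 was 6.92-fold higher in Ebf1 cells (limma adjusted p 0.00362), and its log2 change with normexp correction was 0.62. Rgs9bp read -6.4, -6.57 and -6.85 in controls and -2.9, -3.53 and -3.57 in Ebf1 cells, again with no control array well above background. It was 6.24-fold higher against the same floor (limma adjusted p 5.59e-05), and 0.54 higher on the log2 scale with normexp correction. Rgs9 and Rgs9bp passed the filter through the Ebf1 group alone and so had to differ, and their p-values add no support. A second Rgs9bp probe was above background on 1 Ebf1 array and was not tested.

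Rgs11, the other R7 gene tested, was above background on all arrays. Its controls lay at -1.16, -1.29 and -0.39 and its Ebf1 arrays at 0.34, 0.22 and -0.02, with control replicate 3 nearest to the Ebf1 group. It rose by 1.13 (SE 0.25, limma adjusted p 0.0181), and the adjusted p reached 0.0623 in the fits without control replicate 1, control replicate 2 or Ebf1 replicate 2. Rgs6 and Rgs7 were not tested. The probes of Gng13 and Rgs11 lie 492 kb apart on chromosome 17.

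Because Gngt2, Rgs9 and Rgs9bp are known from photoreceptors and Gng13 also from other sensory and neural cells, the fixed markers of those cells are given beside them. Of 12 photoreceptor markers on the array 2, Pde6h (0.11) and Pde6g (-0.02), were tested and neither was called. Rcvrn, Pde6a and Pde6b were not well above background on any array. The summed photoreceptor level was 0.326 to 0.372 times the 75th percentile in controls and 0.24 to 0.41 times in Ebf1 cells. Of 12 neuronal markers 3 were tested, with a median change of -0.28. Tubb3, a beta tubulin, rose by 4.91 (SE 0.17, limma adjusted p 2.32e-06), while Syt1 (-1.03, adjusted p 0.0793) and Syn1 (-0.28, adjusted p 0.5) did not pass. Nefl, Nefm and Map2 were not well above background on any array. The summed neuronal level was 8.15 to 16.1 times the 75th percentile in controls and 40 to 45.2 times in Ebf1 cells. Tubb3 was the only tested neuronal marker with a higher mean in Ebf1 cells, and the part of this level in the rises of the G protein genes was not tested.

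The R4 class, small RGS proteins that act on inhibitory and q-type alpha subunits, split evenly among its 4 tested genes. Rgs1, known in lymphocytes for limiting chemokine responses, read 1.59, 1.77 and 1.44 in controls and 0.4, 0.11 and 0.58 in Ebf1 cells. The groups lay well apart, and it fell by 1.24 (SE 0.17, limma adjusted p 0.00219). Rgs18, known from platelets and blood progenitors, read 2.59, 3.03 and 2.87 in controls and 1.99, 1.69 and 2.12 in Ebf1 cells, without overlap. It fell by 0.90 (SE 0.18, limma adjusted p 0.0116), and its other tested probe by 0.88. Without control replicate 2 the call was lost at an adjusted p of 0.0507.

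Platelet markers are given beside Rgs18. Of 12 on the array 4 were tested, 2 called higher and 1 lower, against 23.6% of all tested genes called. Gp9, the brightest of the 4 and the largest part of their summed level, rose by 1.48, from a mean of 1.94 to 3.42. Itga2b fell by 1.21, and Gp1bb (-0.52, limma adjusted p 0.142) was not called. Vwf, not well above background on any control array, passed the filter through the Ebf1 group alone. It was 2.94-fold higher against the floor used for Gng13. Pf4 and Ppbp were not well above background on any array. The summed level was 3.84 to 4.84 times the 75th percentile in controls and 10.1 to 12.5 times in Ebf1 cells, and its part in the fall of Rgs18 was not tested.

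Rgs2, which favours q-type alpha subunits, rose. Its controls read 2.5, 3.04 and 2.68 and its Ebf1 arrays 3.8, 3.51 and 3.68, without overlap. The rise was 0.92 (SE 0.18, limma adjusted p 0.0108). Rgs2, Rgs1 and Rgs18 lie with Rgs13 in a group of 4 genes whose probes span 752 kb on chromosome 1, so that 1 neighbour was called higher and 2 lower, and Rgs13 was not tested.

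Rgs3, which acts on inhibitory and q-type alpha subunits and has long and short protein forms, was the gene with the most tested probes, 5 in all. Sequences of 4 of them are shown, numbered in order along the gene, because they disagree. Probes 3 and 4 cover 678 and 919 bases of genome and cross exon junctions.
Rgs3 probe 2 (chr4:62350689-62350748, plus strand): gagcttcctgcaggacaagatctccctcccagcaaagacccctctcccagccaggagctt
Rgs3 probe 3 (chr4:62361410-62362087, plus strand): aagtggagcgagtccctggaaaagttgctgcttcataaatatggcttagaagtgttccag
Rgs3 probe 4 (chr4:62362192-62363110, plus strand): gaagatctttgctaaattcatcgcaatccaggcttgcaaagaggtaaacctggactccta
Rgs3 probe 5 (chr4:62363141-62363200, plus strand): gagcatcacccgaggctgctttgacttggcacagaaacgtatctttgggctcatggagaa

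Probe 5, the brightest, read 0.08, 0.16 and 0.2 in controls and 1.37, 1.24 and 1.17 in Ebf1 cells, a rise of 1.11 (SE 0.14, limma adjusted p 0.00106). Probes 1, 3 and 4 rose by 1.08, 1.32 and 1.2 (limma adjusted p 0.00719, 0.000449 and 0.00179, in that order). Probe 2 gave -0.26 (SE 0.33, adjusted p 0.598). It read 0.53, 0.36 and 0.24 in controls and -0.71, 0.48 and 0.56 in Ebf1 cells, so Ebf1 replicate 1 lay far below the others and the other two within or just above the controls. The difference between probe 2 and the other probes was not tested.

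**Figure D3:**
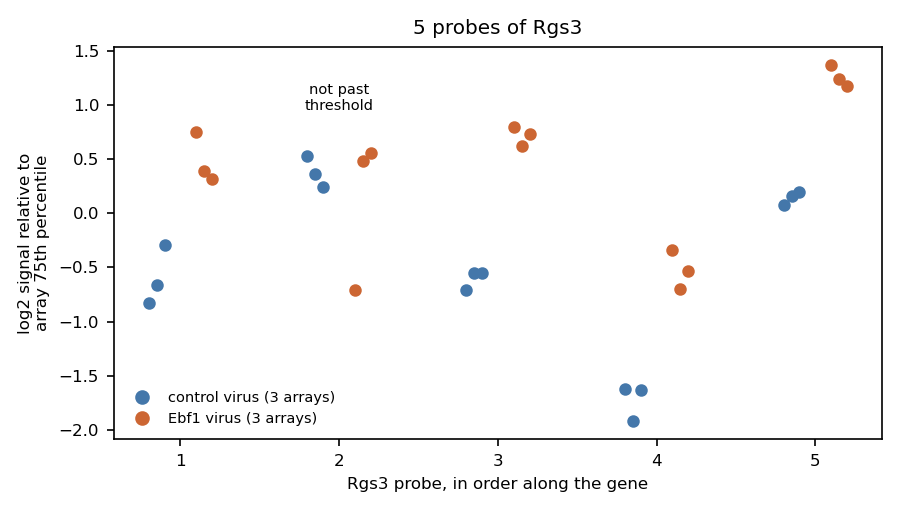
Log2 signal relative to the array's 75th percentile for the 5 tested Rgs3 probes, numbered in order along the gene, on the 3 control and 3 Ebf1 arrays; levels of different probes are not comparable with each other. The groups are apart at probes 1, 3, 4 and 5 and overlap at probe 2, where Ebf1 replicate 1 stands at -0.71.

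The R12 class, RGS proteins that act on inhibitory alpha subunits, was tested in full, and 2 of its 3 genes fell. Rgs14, a scaffold that also binds Ras-family proteins, read 0.48, 0.42 and 0.5 in controls and -0.54, -0.55 and -0.67 in Ebf1 cells. Spread within each group was small against the gap, and it fell by 1.05 (SE 0.13, limma adjusted p 0.00118). Rgs10 read 2.09, 2.24 and 2.37 in controls and 1.36, 1.28 and 1.52 in Ebf1 cells, also without overlap. It fell by 0.85 (SE 0.15, limma adjusted p 0.00603).

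Rgs12 rose instead, from 4.03, 4.6 and 4.57 in controls to 5.48, 5.24 and 5.3 in Ebf1 cells, with control replicate 1 lowest and no overlap. The change was 0.94 (SE 0.19, limma adjusted p 0.0121). In the RZ class, Rgs19 (also known as GAIP) fell by 0.61 (SE 0.15, limma adjusted p 0.0255) at 1 probe, while the other gave -0.21 (adjusted p 0.416). The Rgs19 call was lost without any 1 control array or without Ebf1 replicate 2 (adjusted p up to 0.0946). Gnl1, no heterotrimer subunit, fell at both of its tested probes, by 0.60 (limma adjusted p 0.0499) and 0.69 (0.0365). Its first call was lost in the fits without each array but control replicate 1, with adjusted p up to 0.156.

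The 24 genes not tested were Gna14, Gnal, Gnao1, Gnat1, Gnat2, Gnaz, Gnb3, Gnb4, Gng3, Gng4, Gng7, Gng8, Gngt1, Rgs4, Rgs5, Rgs6, Rgs7, Rgs8, Rgs13, Rgs16, Rgs17, Rgs20, Rgs22 and Rgs7bp. Of the 49 member probes not tested, 32 were not well above background on any array. Ebf1 replicate 3 had 15 of the 49 above background, 10 of them on that array alone, against 0 to 4 on each other array. That array also had the largest share of all probes above background (59.8%).

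Slide 1 gives a comparison of a single control array with a single Ebf1 array on the same slide. The groups of all 21 called genes were free of overlap, which fixes the direction of the difference within the slide, so only its size is given. It was 1.86 for Gna11, 1.74 for Gna15, 1.2 for Rgs3 and -1.37 for Rgs1. With slide as a fixed block, which leaves 2 residual degrees of freedom and rests on that pair, 8 of the 21 remained past the threshold: Gng13, Rgs9bp, Gngt2, Gna15, Gna11, Rgs3, Gnb5 and Rgs1. With slide as a random block all 21 did, but its correlation was 0.01, so that fit was close to the reported one. With each array centred on its median in place of its 75th percentile, the median of all tested probes moved from -0.06 to -0.37, and the rises of Rgs2, Rgs3, Rgs11, Rgs12, Gnb5 and Gna12 missed the threshold while keeping their direction. The fall of Gng12 also missed it, at -0.87 (limma adjusted p 0.052), a larger difference than the -0.56 of the reported scaling. Ebf1 replicate 3 had a median signal of 19.73 at a 75th percentile of 316. The other Ebf1 arrays had 12.7 at 364 and 12.29 at 346. Median scaling therefore also moved Ebf1 replicate 3 relative to its group, which changes the spread as well as the difference.

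**Figure D4:**
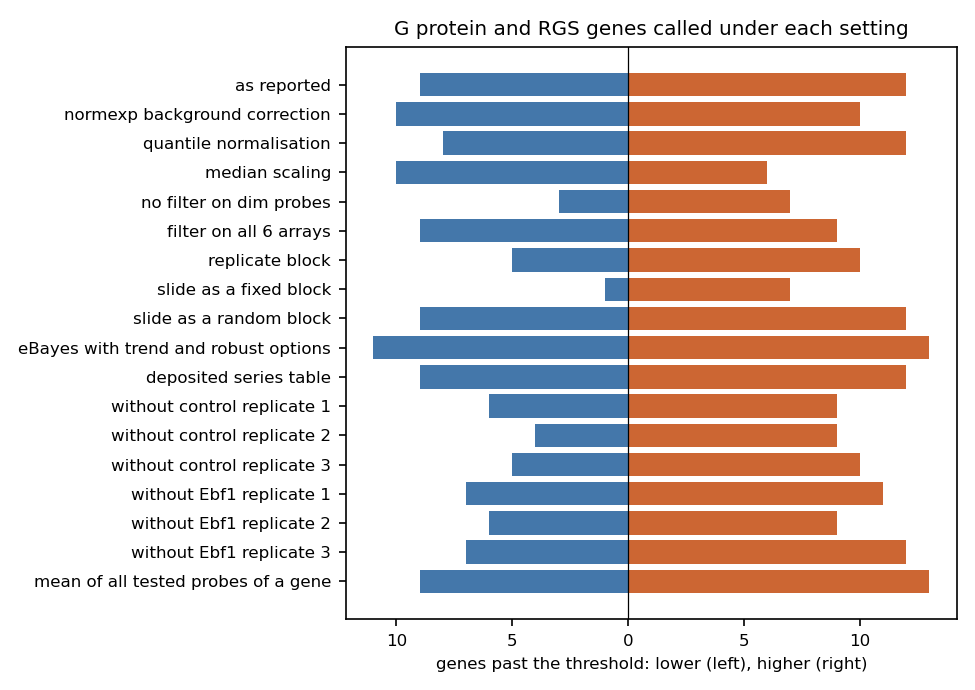
Number of G protein and RGS genes past the threshold under each processing setting, those lower in Ebf1 cells drawn to the left of 0 and those higher to the right. The reported setting gives 12 higher and 9 lower, median scaling 6 and 10, no filter 7 and 3, and slide as a fixed block 7 and 1.

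Genes on either side of the G protein were counted from 3 lists, and the background of 23.6% of genes called applies to each. The lists were chosen with earlier results of these data known. Of 54 receptors 32 were tested, 5 were called higher and 13 lower, with a median change of -0.49. Gpr65, among the 13, was not well above background on any Ebf1 array, passed the filter through the controls alone and so had to differ. Ackr3 and Gpr18, among the 5, passed through the Ebf1 group alone, with 1 and 2 control arrays above background. With signal asked for on all 6 arrays, 28 receptors were tested, 4 were higher and 12 lower. The chemokine receptor Ccr2 read -0.17, -0.21 and -0.38 in controls and -3.5, -3.13 and -2.81 in Ebf1 cells, a fall by 2.89 (SE 0.20, limma adjusted p 5.63e-05). Ccr9, the receptor for Ccl25, fell by 2.50 (SE 0.26, adjusted p 0.000437). The cannabinoid receptor Cnr2 rose by 2.43 (SE 0.20, adjusted p 0.000149) and the chemokine receptor Cxcr3 by 2.22 (SE 0.20, adjusted p 0.000234).

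Of 42 effectors 29 were tested, 9 were called higher and 2 lower (median 0.29). Pde4a, which breaks down cyclic AMP, read 1.35, 1.32 and 1.55 in controls and 5.42, 4.53 and 4.73 in Ebf1 cells, a rise of 3.48 (SE 0.24, limma adjusted p 5.78e-05). Adcy6, which makes cyclic AMP, rose by 1.92 (SE 0.13, adjusted p 5.51e-05), and Adcy5 was 4.52-fold higher against the floor used for Gng13. Adcy5 and Adcy9, which are both among the 9, were not well above background on any control array and passed the filter through the Ebf1 group alone, so they had to differ. Arhgef11, an exchange factor that acts downstream of Galpha 12/13, rose by 1.36 (SE 0.14, adjusted p 0.00037).

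Of 28 other regulators 21 were tested, 6 (28.6%) were called higher and 0 lower (median 0.27). Among all tested genes 23.6% were called and 12.6% called higher. The 6 became 3 without control replicate 2 or without Ebf1 replicate 3, and also with slide as a fixed block, median scaling or no filter. By limma 11 of the 21 had an unadjusted p under 0.05, against 5276 of all 13839 tested genes. Normexp correction, quantile normalisation and the trended eBayes fit each called 1 lower. Gpsm1, which binds inhibitory alpha subunits in their GDP form, read 4.23, 4.59 and 4.64 in controls and 6.6, 6.13 and 6.51 in Ebf1 cells, a rise of 1.93 (SE 0.19, limma adjusted p 0.000328). Ric8a, a chaperone of alpha subunits, rose by 1.48, the arrestin Arrb1 by 1.5 and the receptor kinase Grk3 by 0.81, with adjusted p from 0.000239 to 0.0244. With median scaling the medians of the effector and regulator lists turned to -0.02 and -0.04, while that of the receptors stayed negative at -0.80.

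Promoters from RefSeq (GRCm38.p6), 250 bases before to 50 after each start, were found for 40 of the 55 genes (53 promoters). They were searched for the palindromic Ebf1 consensus and for the looser CCCNNGGG at its centre; both read the same on either strand. The full consensus was in 0 of the 53 and in 0.904% of all 32851 promoters of the table. The looser form was in 13 of the 53 (24.5%) and in 13.7% of all. By gene it was in 3 of 9 called higher, 3 of 6 called lower, 3 of 8 tested and not called and 3 of 17 not tested, against 15.4% of all genes of the table. It was thus in promoters of genes called in both directions and of genes that did not pass. A match describes the letters and is not evidence of binding. Of these promoters 4 stretches are shown, with the match in capitals, from the genes Gng13, Gna15 and Rgs12 that rose and Rgs10 that fell.
Gng13 (chr17:25717052-25717109, plus strand): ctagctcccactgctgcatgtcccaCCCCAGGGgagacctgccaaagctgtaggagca
Gna15 (chr10:81524295-81524352, minus strand): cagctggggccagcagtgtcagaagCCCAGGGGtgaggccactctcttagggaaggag
Rgs12 (chr5:34949278-34949335, plus strand): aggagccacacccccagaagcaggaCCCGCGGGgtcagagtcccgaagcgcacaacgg
Rgs10 (chr7:128418242-128418299, minus strand): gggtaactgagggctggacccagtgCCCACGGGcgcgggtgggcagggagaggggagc
The first base of the match lay 95, 102, 145 and 102 bases before the start, in that order.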

How the data were processed

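Spot intensities of 6 arrays were deposited by the authors as scanner files, extracted with Agilent Feature Extraction 10.5.1.1 per the file headers, which name mm9 for probe positions. The table deposited for the series holds the same intensities. Groups and replicate numbers came from the sample titles. Members and gene lists were chosen with earlier results of these data known. The log2 of the processed signal minus each array's 75th percentile was used, outlier spots (65 to 116 an array) were left out and spots of a probe averaged, giving 41174 probes. Of these, 20459 had signal well above background throughout at least 1 group and were compared in a two-sided test by limma 3.58.1 (R 4.3.3, with version 1.17.8 of data.table), adjusted over these probes by Benjamini-Hochberg, at a threshold of 0.05. A fit on simulated data was checked first. Of those tested, 7 lacked a value on 1 or more arrays. Accessions matched RefSeq (GRCm38.p6) for 25263 probes, whose symbols were updated. A gene stands for its tested probe with the highest mean. Lists are described by counts and median. All called genes are named, with all 6 array values for at least the 12 with the smallest p, and of the others the brightest and the one with the smallest p of each subfamily; other genes named without a call were chosen after their values were seen. Each pathway list gives its 4 called genes with the smallest p. Alternatives were normexp (offset 50), quantile and median scaling, other filters, blocks, eBayes options, probe means, the table deposited for the series, and leaving out arrays. The number of arrays limits the precision. Protein sequences are not shown here.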

Additional observations from a re-analysis of the deposited data

How the results depend on the processing

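None of the 21 called genes changed direction under any of the alternatives that gave it a value. The groups of all 21 were free of overlap, so leaving out arrays, the blocks, the filters and the eBayes options could not have changed it. Of the 21 calls, 19 were kept with normexp correction, 19 with quantile normalisation, 14 with median scaling and 10 without a filter. The replicate block kept 15 and slide as a fixed block 8. All 21 were kept with trended and robust eBayes and with the mean of a gene's probes. All 21 were also kept with slide as a random block, but at a correlation of 0.01 that fit was close to the reported one. The deposited table holds the same intensities, so its fit had to keep all 21. All 18 that could be tested were kept when signal on all 6 arrays was asked for. Median scaling gave 6 member genes higher and 10 lower and 1257 probes higher, so that 32.2% of all calls were higher against 53% in the reported setting. Without a filter 41174 probes entered the adjustment, and 7 member genes were higher and 3 lower (1341 and 655 probes). The filter on all 6 arrays left out the genes dark in controls, with 44.6% of calls higher. With slide as a fixed block 7 member genes were higher and 1 lower, 1269 probes were higher and 899 lower, and 13 pathway genes were higher. Same-numbered arrays had correlations of -0.17, -0.25 and 0.1 in their deviations from the group means. With 3 arrays a group these values constrain each other, so they cannot decide whether the numbers pair the samples. The replicate block gave 10 member genes higher and 5 lower (1864 and 1236 probes), with 3 of the regulators higher. Leaving out 1 array at a time gave 9 to 12 member genes higher and 4 to 7 lower (4 without control replicate 2, 5 without control replicate 3), and 1624 to 2113 probes higher and 1009 to 1703 lower; 13 of the 21 calls held in all 6 such fits. Normexp, which adds an offset, compressed the changes of dim genes most. Signal near background limits what can be said of Gng13, Rgs9 and Rgs9bp in controls and of the 24 genes not tested.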
